A study of Mus musculus with 12 samples.

Results

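The comparison described here sets all 6 arrays of M19 fetal testes against all 6 arrays of 129 fetal testes, with embryonic stage held as a factor, and asks which genes differed between the strains in the same direction at E13.5, E15.5 and E17.5. It uses 12 of the 12 arrays of the study, chosen by the strain in each array's title. M19 is the chromosome substitution strain 129.MOLF-Chr 19, in which chromosome 19 of the 129 strain has been replaced by that of the inbred strain MOLF/Ei, and 129/Sv is the strain that supplies the rest of its genome. The labels do not say whether the M19 embryos carried 1 or 2 MOLF copies of the chromosome. All embryos were male and untreated, the tissue was genital ridge or testis, and each of the 6 groups (M19 and 129 at each of the 3 stages) has 2 arrays. For 2 arrays, 40 pairs of testes were pooled, so the 2 arrays of a group may come from 1 pool. In that case p-values at single stages, or for a strain difference that varies with stage, reflect technical spread alone. The p-values over all stages rest mostly on that spread, and also count how far the strain difference moved between stages.

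Germ cells of the fetal mouse testis stop dividing over these stages, switch off the pluripotency genes they carried as primordial germ cells, and begin new DNA methylation and piRNA production. In 129 mice some germ cells fail to make this change and form testicular teratomas, and M19 mice are known for a high frequency of these tumours. A chromosome substitution strain is used to ask what 1 chromosome changes: its genes carry other alleles, while the rest of the genome is meant to be shared.

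The arrays were Affymetrix mouse 430_2 arrays with 45037 probe sets tested, of which 1211 belonged to 609 genes on chromosome 19. Values are the deposited log2-like signals, and differences are M19 minus 129 in log2 units with the standard error (SE) from limma. Testis markers were present in both strains: the median signal of Sox9, the Sertoli cell transcription factor, was 10.31 on M19 arrays and 10.26 on 129 arrays, and that of Ddx4, a germ cell RNA helicase, was 11.72 on M19 arrays and 11.73 on 129 arrays. None of the 13 measured germ cell genes, 14 Sertoli cell genes or 7 Leydig cell genes was called between the strains by limma (0, 1 and 0 had an unadjusted p under 0.05), and the median differences of these lists were 0.03, 0.00 and -0.01. Some arrays stood apart. The 13 epidermis genes averaged 10.13 and 10.19 on the 129 arrays at E15.5 against 8.07 to 8.51 on the other 10 arrays, and the 18S control signal was 9.69 on replicate 1 of 129 at E13.5 against 6.88 to 8.38 elsewhere.

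Strain differences that held across the stages were few and lay mostly on chromosome 19. At an adjusted p under 0.05 (limma, Benjamini-Hochberg over all probe sets), 111 probe sets were called, 0.246% of those tested. Of these, 77 were lower in M19 (0.171% of those tested) and 34 were higher in M19 (0.0755%). All 111 had the same sign at all 3 stages, which 23.7% of the probe sets tested had, and a call on the mean difference favours such probe sets. In 109 of the 111 the M19 and 129 arrays did not overlap within any stage, against 479 of all probe sets, or 1.06%. Over all stages together, 78 of the 111 had 6 M19 arrays that did not overlap the 6 129 arrays, against 115 of all probe sets, or 0.255%. Leaving out replicate 2 of M19 at E13.5, E15.5 or E17.5 brought the count of called probe sets to 72, 67 or 70.

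By position, 79 of the 111 called probe sets (71.2%) were on chromosome 19, which holds 2.69% of the probe sets tested. The called share was 6.52% of probe sets on chromosome 19, against 0.0328% (11 of 33525) on other chromosomes and 0.204% (21 of 10301) among probe sets with no chromosome known here. On chromosome 19, 56 of the 79 were lower in M19, with a median of -0.71, and 23 were higher, with a median of 0.57.

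Counted by gene, with each gene represented by its brightest probe set, 41 genes were called (0.227% of 18032). Of these, 34 were on chromosome 19 (82.9%, exact binomial 95% interval 67.9% to 92.8%), where 23 were lower and 11 higher in M19. The other 7 genes lay on other chromosomes, 4 lower and 3 higher in M19. The interval takes genes as independent, which they are not, and does not measure the spread between arrays or animals. Leaving out 1 array gave 21 to 44 called genes, with 14 to 24 lower and 4 to 9 higher on chromosome 19, against 23 and 11 with all arrays. With the replicate number as a block within stage, 18 genes were called, 13 lower and 3 higher on chromosome 19 and 2 elsewhere. The chromosome 19 count was 18 to 22 when single arrays were left out from M19 at any stage (replicates 1 and 2 each) and 21 without replicate 2 of 129 at E15.5. When any called probe set was enough, 64 genes on chromosome 19 were called, of which 44 were lower, 20 were higher and 0 were mixed, and 11 genes elsewhere.

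**Figure D1:**
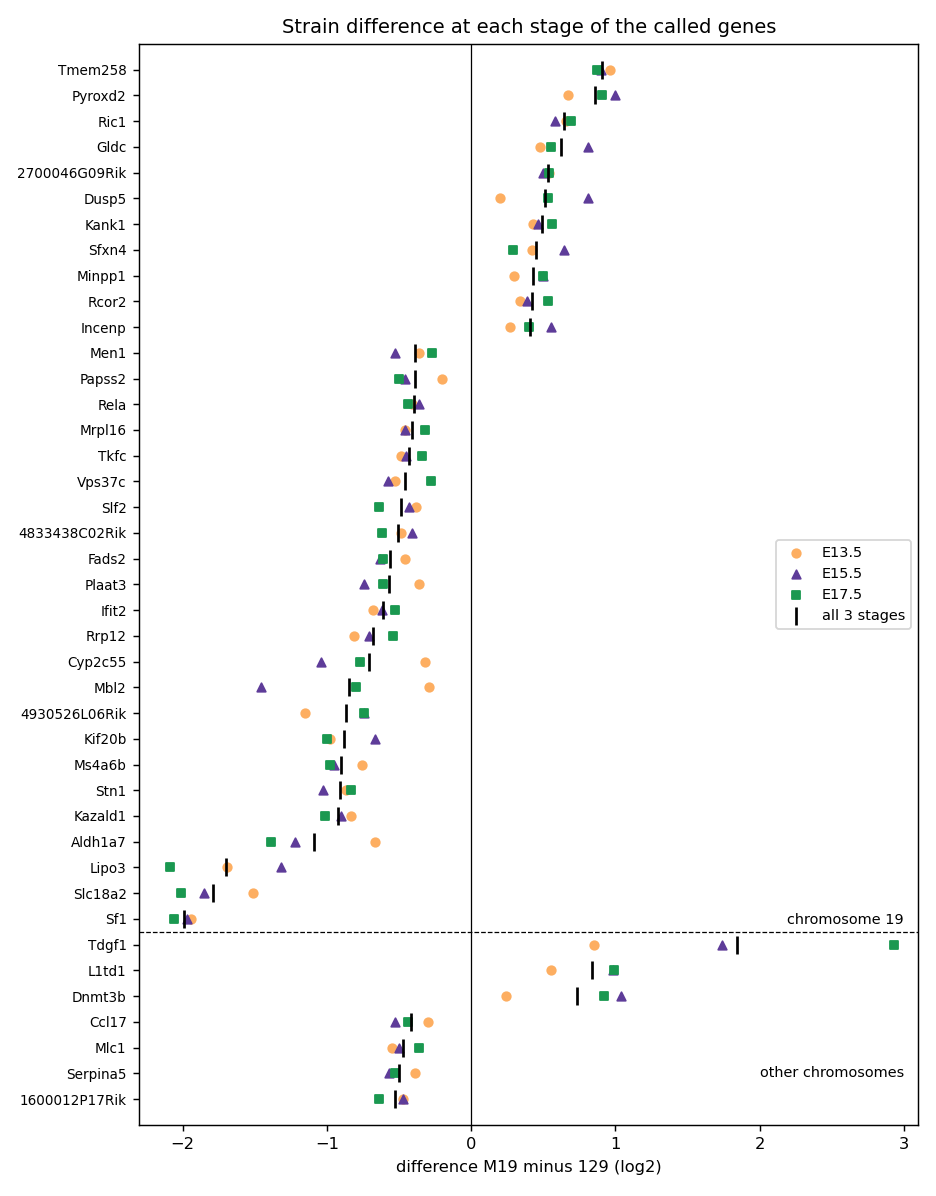
Each row is 1 of the 41 called genes; the x axis is the difference M19 minus 129 in log2 units at E13.5 (circle), E15.5 (triangle) and E17.5 (square), with a bar for the estimate over all 3 stages, from 2 M19 and 2 129 arrays per stage. The 34 genes above the dashed line are on chromosome 19 and the 7 below it are elsewhere; in every row the 3 stage values lie on 1 side of 0.

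Fewer genes were called at every stage taken alone. Contrasts of M19 with 129 at each stage, each adjusted over all probe sets, called 14 probe sets at all 3 stages (0.0311% of those tested). Of these, 11 belonged to named chromosome 19 genes, 10 lower in M19 and 1 higher, and 3 had no gene name. Among the chromosome 19 genes only Sf1, Lipo3 and Kazald1 were called at every stage through their representative probe set. Dropping 1 array changed the count of 14 to 9 or 7 (M19 at E13.5, replicates 1 and 2), 9 or 8 (M19 at E15.5, replicates 1 and 2), and 8 (replicate 1 of M19 or either replicate of 129, E17.5).

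For these 3 genes, the 250 bases before a start that the RefSeq promoter table lists are shown because they are the genes whose main probe set differed at every stage. They come from RefSeq (GRCm38.p6), the C57BL/6J reference and neither strain's own allele; CG pairs are in capitals, 5′ to 3′ on the gene's strand. The windows are chr19:6363440-6363689 on the plus strand for Sf1, chr19:33590312-33590561 on the minus strand for Lipo3 and chr19:45074991-45075240 on the plus strand for Kazald1, for which 2 starts are listed and 1 is shown. The listed start is not the outermost end of the annotated gene: the Lipo3 and Kazald1 windows lie inside the gene's span, and the Sf1 window includes the gene's first bases.
Sf1: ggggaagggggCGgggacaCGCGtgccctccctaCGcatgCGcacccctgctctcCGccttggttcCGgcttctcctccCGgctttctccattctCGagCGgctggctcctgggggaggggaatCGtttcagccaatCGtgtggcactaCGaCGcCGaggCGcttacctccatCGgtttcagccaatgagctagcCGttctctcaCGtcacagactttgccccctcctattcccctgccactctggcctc
Lipo3: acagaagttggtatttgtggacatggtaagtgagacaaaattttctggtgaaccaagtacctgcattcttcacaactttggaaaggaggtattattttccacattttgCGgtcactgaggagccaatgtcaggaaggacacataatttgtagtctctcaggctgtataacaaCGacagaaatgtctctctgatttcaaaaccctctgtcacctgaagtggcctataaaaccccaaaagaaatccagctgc
Kazald1: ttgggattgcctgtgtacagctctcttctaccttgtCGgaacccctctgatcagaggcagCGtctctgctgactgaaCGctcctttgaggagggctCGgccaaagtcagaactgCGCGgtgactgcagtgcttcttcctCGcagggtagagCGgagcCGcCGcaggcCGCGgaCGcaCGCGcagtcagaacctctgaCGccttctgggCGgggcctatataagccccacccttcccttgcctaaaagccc
The Sf1 and Kazald1 windows hold 19 and 17 CG pairs, and the Lipo3 window holds 2. Among all 32851 promoters of the table the median was 6, and 19.7% had at least as many as Sf1, 23.5% as Kazald1 and 81.2% as Lipo3. The motif TATAAA, searched on both strands, was in the Lipo3 window and not in the other 2, and 12.4% of all promoters hold it.

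Sf1 encodes splicing factor 1, which binds the branch point of introns, and is one of 3 genes that the study itself names as lower in M19, so its direction here is not independent evidence. Its representative probe set read 11.65 and 11.76 at E13.5, 11.55 and 11.65 at E15.5, and 11.12 and 11.64 at E17.5 on M19 arrays, against 13.55 and 13.75, 13.44 and 13.70, and 13.45 and 13.43 on 129 arrays. Every M19 array was below every 129 array, and the gap was nearly the same at each stage. The difference was -1.99 (SE 0.09, limma adjusted p = 1.6e-07), which is 3.97-fold lower in M19, taking the values as log2. The other Sf1 probe sets differed by -0.91 (adjusted p = 0.001), -0.02, -0.15 and -0.17, the last 3 with adjusted p = 1 in limma. The 9 other branch point and early splicing genes measured, such as U2af1, U2af2 and Sf3b1, differed by -0.04 to 0.05 and none was called by limma or had an unadjusted p under 0.05.

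Lipo3, a member of the acid lipase family, read 7.62 and 7.81, 8.09 and 7.73, and 7.03 and 7.50 at the 3 stages on M19 arrays, against 9.19 and 9.63, 8.93 and 9.52, and 9.53 and 9.19 on 129 arrays. No M19 array reached the lowest 129 array. The difference was -1.70 (SE 0.16, limma adjusted p = 1.7e-04). Lipo3 has close relatives beside it on chromosome 19, and what its probe set takes up from them is uncertain.

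Kazald1, a secreted protein with a Kazal-type inhibitor domain, read 9.09 and 9.18, 10.61 and 10.59, and 11.22 and 11.27 on M19 arrays, against 9.88 and 10.05, 11.53 and 11.47, and 12.24 and 12.29 on 129 arrays. Its signal climbed with stage in both strains, so the 6 M19 and 6 129 arrays overlapped as a whole while no stage overlapped. The strain difference was -0.92 (SE 0.06, limma adjusted p = 6.6e-06), and its stage values were -0.83, -0.90 and -1.01.

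**Figure D2:**
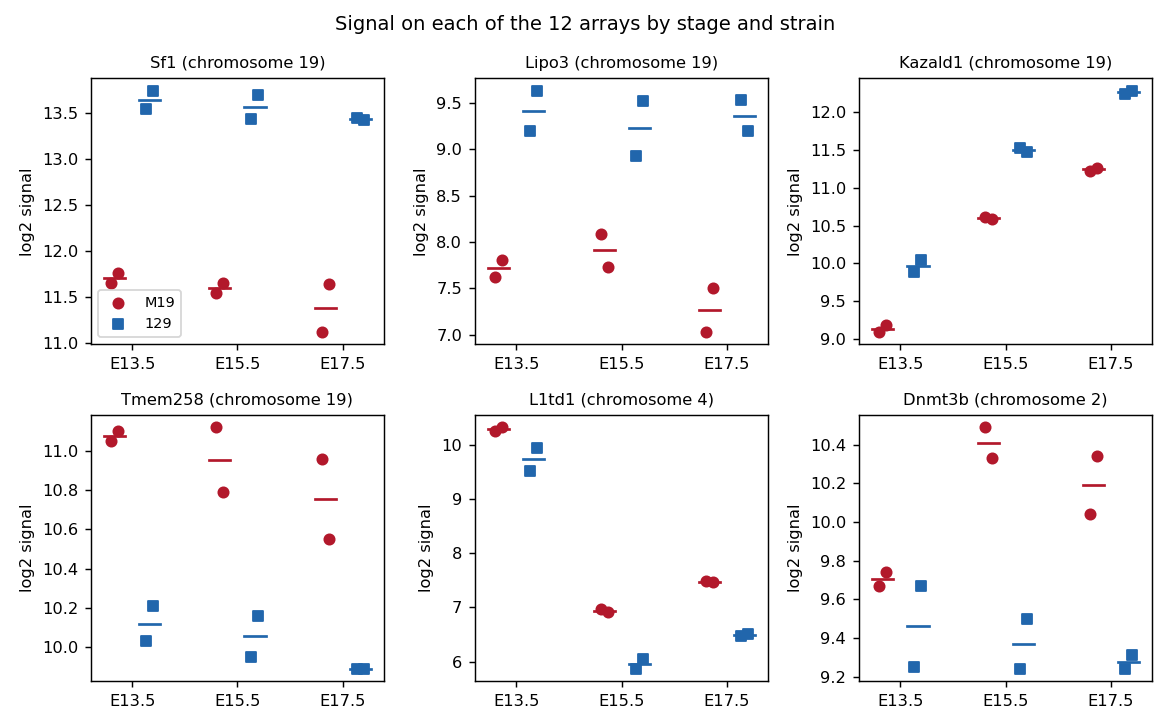
Signal (log2, y axis) on each array at E13.5, E15.5 and E17.5 for 4 genes on chromosome 19 and 2 elsewhere; red circles are M19 arrays, blue squares are 129 arrays and each line is the mean of the 2 arrays of a group. The strains do not overlap within a stage for Sf1, Lipo3, Kazald1, Tmem258 and L1td1, and for Dnmt3b the gap was 0.24 at E13.5 against 1.04 at E15.5.

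The other chromosome 19 genes called at every stage were called through a probe set that was not their brightest. Snhg1, a non-coding host gene of small nucleolar RNAs, had the largest difference of all called probe sets, from a lowest, median and highest signal of 6.13, 6.34 and 6.88 on M19 arrays against 9.37, 9.61 and 10.00 on 129 arrays. The difference was -3.18 (SE 0.09, limma adjusted p = 1.3e-09), and no fold is given because its M19 signals lay below the median of all probe sets, 8.17. A second Snhg1 probe set differed by -1.66, and the 3 others, its brightest among them, differed by -0.25, -0.24 and -0.17 and were not called. Lipa, the lysosomal acid lipase, differed by -1.43, and Ndufv1, a subunit of respiratory complex I, by -1.37. Exoc6, a subunit of the exocyst, differed by -1.07, and Cacul1, a cullin-domain protein, by -0.99. On these probe sets all 4 had limma adjusted p of 1.5e-05 or less and no overlap between any M19 array and any 129 array. Other probe sets of Exoc6 differed by 0.03, -0.05 and -0.07 and were not called. Those of Cacul1 differed by -0.76 (called), -0.20, 0.29, 0.11 and 0.14, where 0.11 was its brightest. Lipa differed by -0.02 and -0.49 on its others, not called, and Ndufv1 by -0.17 (its brightest, not called) and -0.42 (called). Ric1, part of an exchange factor for Rab6 at the Golgi, was the only gene called higher in M19 at every stage, with 8.22, 8.38 and 8.63 (lowest, median, highest) on M19 arrays and 6.93, 7.06 and 7.32 on 129 arrays. Its difference was 1.31 (limma adjusted p = 2e-07) on that probe set and 0.64 (adjusted p = 0.011) on its brightest.

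Pum3 and Cox15, the other genes that the study names as lower in M19, showed the same split between probe sets. Pum3, a pumilio-family RNA-binding protein, had 1 probe set at 8.49, 9.08 and 9.33 on M19 arrays against 10.40, 10.62 and 11.01 on 129 arrays. The strains did not overlap there, and the difference was -1.67 (SE 0.07, limma adjusted p = 6.5e-08). A second Pum3 probe set differed by -0.54 (adjusted p = 7.8e-04) and the brightest by 0.00. Cox15, an enzyme of haem A synthesis for cytochrome oxidase, differed by -1.32 (SE 0.14, limma adjusted p = 5.6e-04) on 1 probe set, and by -0.22, -0.25 and -0.07 on the other 3, none of them called.

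This split was general among the called chromosome 19 genes. Their other probe sets numbered 120, of which 83 (69.2%) moved in the direction of the probe set with the largest called difference, 15 were called in that direction and 0 were called in the opposite one. In 100 of the 120 (83.3%) the difference was under 50% of that of the leading probe set, and the median, counted towards the leading direction, was 0.10. The leading probe set was picked for its size, so smaller values on the others follow in part from that choice. Called genes off chromosome 19 showed a like split: 13 of their 15 other probe sets (86.7%) were under 50%, and 14 moved in the leading direction. Probe sets whose name ends in _x_at, which share probes with other transcripts, made up 14.4% of the called probe sets against 5.42% of those tested. Whether base differences between the MOLF and 129 copies of chromosome 19 under the probes changed the signal was not tested.

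**Figure D3:**
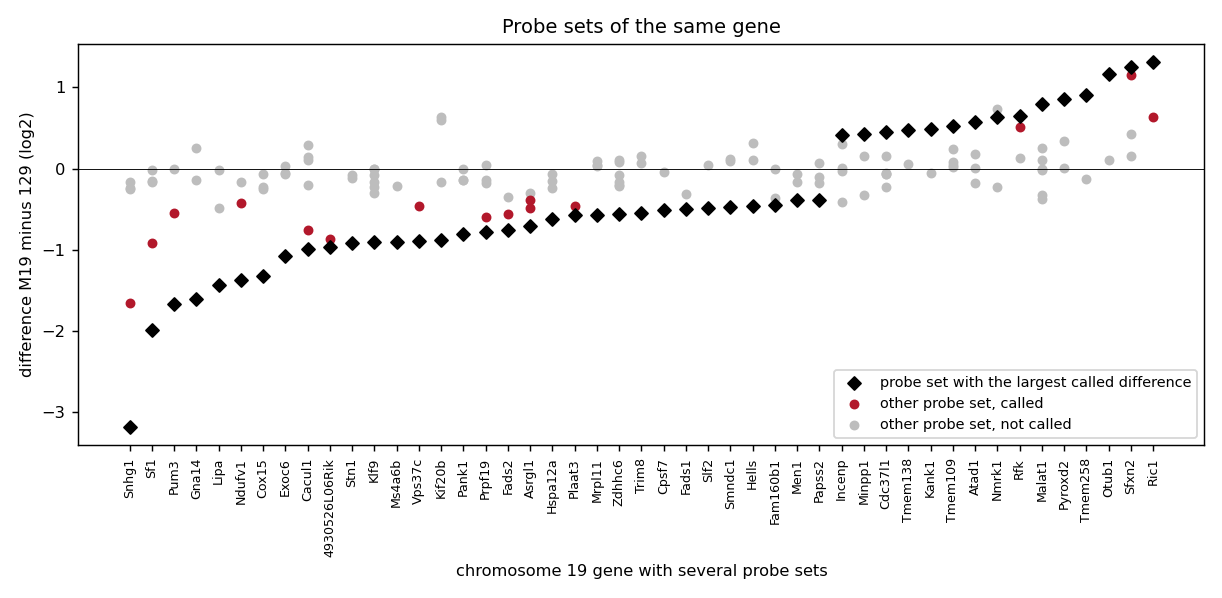
Each column is a chromosome 19 gene that has several probe sets and at least 1 called; the y axis is the difference M19 minus 129 over all stages in log2 units. Black diamonds mark the probe set with the largest called difference, red points other called probe sets and grey points probe sets that were not called; 83.3% of the points lie at under 50% of the value of their diamond, and no red point lies opposite its diamond.

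On chromosome 19, 14 genes were called through more than 1 probe set, with 0 mixed in sign, though the sizes could differ. Some of them follow. Asrgl1, an asparaginase-like enzyme, differed by -0.70, -0.48 and -0.39 on 3 called probe sets and by -0.30 on the fourth. Fads2, a fatty acid desaturase, differed by -0.76 and -0.56 on called probe sets and by -0.35 on another. Plaat3, a phospholipase, differed by -0.57 and -0.46, and Vps37c, an ESCRT subunit, by -0.89 and -0.46, on their called probe sets. Rfk, which makes flavin mononucleotide, differed by 0.65 and 0.51 on 2 called probe sets and by 0.13 on its brightest. These genes were singled out after their values were seen.

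Among chromosome 19 genes lower in M19 through their representative probe set, 5 more are named by size. Aldh1a7, an aldehyde dehydrogenase closely related to its neighbour Aldh1a1, had 8.62, 8.80 and 9.28 (lowest, median, highest) on M19 arrays against 9.86, 9.97 and 10.23 on 129 arrays. The strains did not overlap, and the difference of -1.09 (SE 0.10, limma adjusted p = 2.4e-04) ran from -0.67 at E13.5 to -1.22 at E15.5 and -1.39 at E17.5. Stn1, a subunit of the CST complex at telomeres, had 8.29, 8.46 and 8.84 on M19 arrays against 9.08, 9.32 and 9.83 on 129 arrays, again without overlap (difference -0.91, SE 0.10, limma adjusted p = 0.0011). Dimmer Stn1 probe sets differed by -0.08 and -0.12 and were not called. Kif20b, a mitotic kinesin, had 8.12, 8.88 and 9.02 on M19 arrays against 9.21, 9.56 and 10.03 on 129 arrays. No M19 array of Kif20b reached the lowest 129 array (difference -0.88, SE 0.08, limma adjusted p = 1.8e-04). Its other probe sets, all dimmer, differed by 0.64, 0.60 and -0.17 and were not called. Rrp12, a ribosome assembly factor, differed by -0.68 (SE 0.08, limma adjusted p = 0.0021) and Cyp2c55, one of a cluster of like cytochrome P450 genes, by -0.71 (SE 0.12, adjusted p = 0.024). The Cyp2c55 call was lost in 10 of the 12 fits that left out 1 array.

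Slc18a2, the vesicular monoamine transporter, was dim and was named after its values were seen. It had 5.26, 5.55 and 6.11 on M19 arrays against 6.96, 7.43 and 8.03 on 129 arrays (difference -1.79, SE 0.14, limma adjusted p = 2.7e-05), with no overlap. Mbl2, a mannose-binding lectin, was also dim, and was the 1 probe set of the 111 also called for a strain difference that varied with stage. It differed by -0.29 at E13.5, -1.46 at E15.5 and -0.80 at E17.5, with limma adjusted p = 0.027 for the strain and 0.038 for the interaction. The strain call of Mbl2 was lost in 8 of the 12 fits without 1 array.

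Ifit2, an interferon-induced RNA-binding protein on chromosome 19, had 7.94, 8.02 and 8.10 on M19 arrays against 8.47, 8.62 and 8.80 on 129 arrays. The difference was -0.61 (SE 0.06, limma adjusted p = 3.3e-04), without overlap. Its neighbours Ifit1 and Ifit3 differed by -0.04 and -0.09. Ifit2 was the only one of 12 measured interferon response genes that was called, and the median difference of that list was -0.06 against -0.01 over all genes.

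On the higher side, Tmem258, a subunit of the oligosaccharyltransferase complex, read 11.05 and 11.10, 11.12 and 10.79, and 10.96 and 10.55 at the 3 stages on M19 arrays, against 10.03 and 10.21, 9.95 and 10.16, and 9.89 and 9.89 on 129 arrays. All M19 arrays were above all 129 arrays, and the difference was 0.91 (SE 0.09, limma adjusted p = 2.2e-04). Its other probe set differed by -0.13 and was not called. Pyroxd2, an oxidoreductase-domain protein of mitochondria, had 8.68, 9.08 and 9.25 on M19 arrays against 8.03, 8.15 and 8.28 on 129 arrays (difference 0.86, SE 0.07, limma adjusted p = 7.7e-05), without overlap. Another Pyroxd2 probe set with the same mean signal, 8.59, differed by 0.01 and a dimmer one by 0.34, and neither was called. Gldc, the glycine decarboxylase of the glycine cleavage system, had 8.34, 9.92 and 9.98 on M19 arrays against 7.80, 9.11 and 9.55 on 129 arrays. The Gldc arrays overlapped across stages and not within one, and the difference was 0.62 (SE 0.07, limma adjusted p = 0.0013).

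Smaller rises on chromosome 19 were nearer the threshold. Dusp5, a phosphatase of ERK kinases, rose by 0.51 (limma adjusted p = 0.047) and Kank1, a cytoskeletal adaptor, by 0.49 (adjusted p = 0.030). Another Kank1 probe set differed by -0.05 and was not called. Sfxn4, a mitochondrial protein of the sideroflexin family, rose by 0.45 (limma adjusted p = 0.046), and the transcript 2700046G09Rik by 0.53 (adjusted p = 0.030). Each of these 4 calls was lost in 10 or 11 of the 12 fits without 1 array.

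The called genes were spread along chromosome 19 and not gathered at 1 place, though their density was uneven. Counting any called probe set, it ran from 5.97% of 201 genes at 0 to 10 megabases to 18.9% of 74 genes at 30 to 40 megabases. In order along the chromosome, the first called by its representative was Rela, gene 86 of 609, and the last was Sfxn4, gene 605. Ndufv1, called through another probe set, was gene 19. Higher and lower genes lay among each other: Rcor2 (0.42) lay between Sf1 (-1.99) and Plaat3 (-0.57), and Gldc (0.62) was next to Mbl2 (-0.85).

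**Figure D4:**
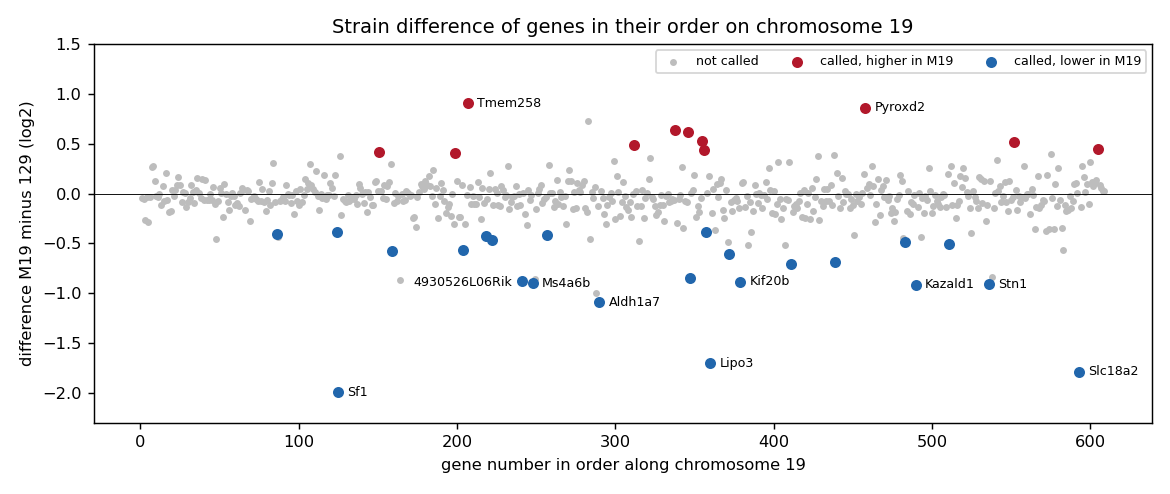
The 609 genes of chromosome 19 in their order along the chromosome (x axis, gene number) with their difference M19 minus 129 over all stages (y axis, log2). Called genes higher in M19 are red, called genes lower in M19 are blue and the rest grey; called genes run from number 86 to number 605, and the lowest are Sf1, Slc18a2 and Lipo3.

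Chromosome 19 genes taken as a whole differed more widely than genes elsewhere. Differences had an SD of 0.252 over its 609 genes and 0.105 over 17422 genes on other chromosomes, and an unadjusted p under 0.05 was reached by 24.3% of the genes on chromosome 19 and 3.71% elsewhere. The 3 stages gave the same sign in 43.8% of genes on chromosome 19 and 22.3% of genes elsewhere. The M19 and 129 arrays did not overlap at any stage, with 1 sign, in 13.3% of genes on chromosome 19 and 0.712% elsewhere. Among genes that were not called, 575 on chromosome 19 and 17415 elsewhere, the SD was 0.168 on chromosome 19 and 0.104 elsewhere. Of these genes, 19.8% on chromosome 19 and 3.67% elsewhere had an unadjusted p under 0.05, and 8.17% on chromosome 19 and 0.678% elsewhere had no overlap at any stage with 1 sign. Between stages, the strain differences of chromosome 19 genes correlated across genes with Pearson r of 0.67 (E13.5 with E15.5), 0.59 (E13.5 with E17.5) and 0.67 (E15.5 with E17.5). For the 575 genes of chromosome 19 that were not called the values were 0.48, 0.25 and 0.42, and for genes elsewhere 0.21, -0.19 and 0.01. These correlations are descriptions: genes are not independent replicates, and all genes of a stage share the same 4 arrays.

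**Figure D5:**
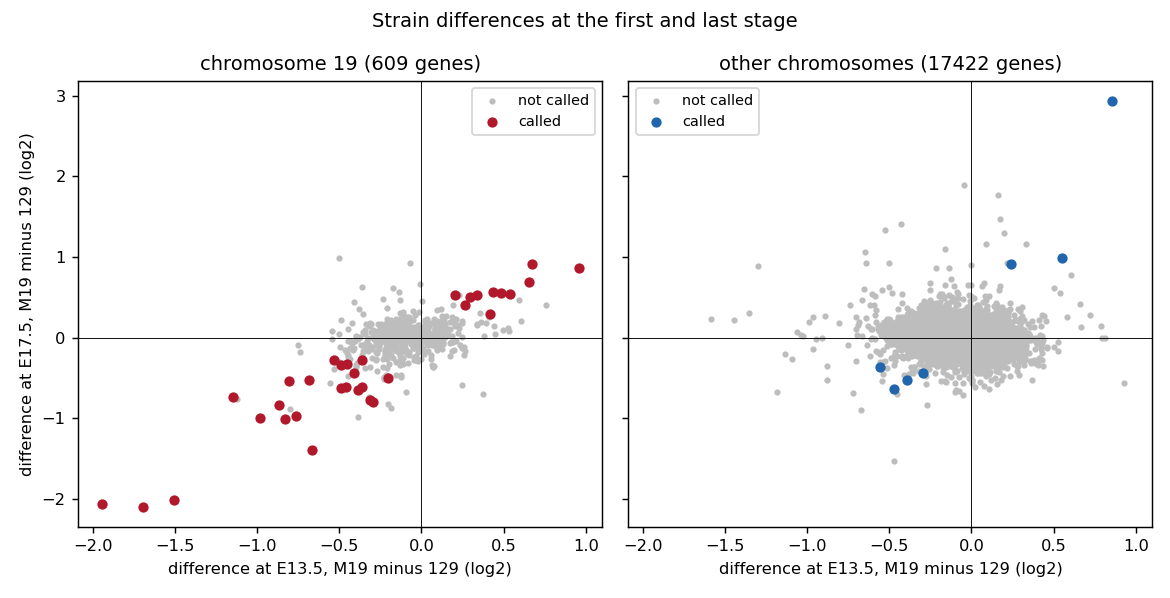
Difference M19 minus 129 in log2 units at E13.5 (x axis) and E17.5 (y axis), 1 point per gene, for 609 genes on chromosome 19 (left) and 17422 genes elsewhere (right), with called genes in colour. Chromosome 19 genes extend along the diagonal (r = 0.59), and genes elsewhere do not (r = -0.19) apart from the 7 called ones.

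Off chromosome 19, the genes higher in M19 through their representative probe set were Tdgf1, L1td1 and Dnmt3b, on chromosomes 9, 4 and 2. L1td1, an RNA-binding protein of pluripotent and germ cells derived from a LINE-1 element, read 10.25 and 10.32, 6.97 and 6.91, and 7.48 and 7.47 at the 3 stages on M19 arrays, against 9.52 and 9.94, 5.87 and 6.05, and 6.47 and 6.51 on 129 arrays. It dropped steeply after E13.5 in both strains, and at each stage the M19 arrays were above the 129 arrays. The difference was 0.84 (SE 0.09, limma adjusted p = 9.2e-04), with stage values of 0.55, 0.98 and 0.99. Tdgf1, the Nodal co-receptor also called Cripto, was dim and read 8.55 and 8.46, 6.01 and 5.88, and 7.66 and 8.10 on M19 arrays, against 7.19 and 8.12, 3.75 and 4.65, and 5.17 and 4.72 on 129 arrays. Its strains did not overlap within a stage, and the difference of 1.84 (SE 0.29, limma adjusted p = 0.017) was 0.85 at E13.5, 1.74 at E15.5 and 2.93 at E17.5. Dnmt3b, a DNA methyltransferase that sets new methylation, read 9.67 and 9.74, 10.49 and 10.33, and 10.04 and 10.34 on M19 arrays, against 9.25 and 9.67, 9.24 and 9.50, and 9.24 and 9.31 on 129 arrays. The strains touched at E13.5, at 9.67, and were apart at the later stages (difference 0.73, SE 0.13, limma adjusted p = 0.038). Its other, dimmer probe set differed by 0.29 and was not called (adjusted p = 1).

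The 4 genes lower in M19 off chromosome 19 by the same measure differed by smaller amounts. Serpina5, a serine protease inhibitor on chromosome 12, read 6.28 and 6.18, 8.05 and 7.94, and 10.10 and 10.23 on M19 arrays, against 6.60 and 6.64, 8.48 and 8.66, and 10.73 and 10.65 on 129 arrays. Its signal climbed with stage in both strains and stayed lower in M19 at each (difference -0.50, SE 0.06, limma adjusted p = 0.0035). Ccl17, a chemokine on chromosome 8, likewise climbed in both strains and differed by -0.30, -0.53 and -0.44 at the 3 stages (-0.42 over all stages, SE 0.07, limma adjusted p = 0.019). Mlc1, on chromosome 15, differed by -0.47 (adjusted p = 0.040), and 1600012P17Rik, on chromosome 1, by -0.53 (limma adjusted p = 0.017). By representative probe set, no chromosome other than 19 had more than 1 called gene.

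Another 4 genes off chromosome 19, named after their values were seen, were called through a probe set that was not their brightest. Taf1d, a subunit of the RNA polymerase I factor SL1 on chromosome 9, differed by 0.47 (limma adjusted p = 0.016), and its 6 other probe sets by 0.01 to 0.24. Dusp9, a MAP kinase phosphatase on chromosome X, differed by 0.41 (limma adjusted p = 0.048), and its others by 0.04 and 0.42. Mapre1, which binds growing microtubule ends and lies on chromosome 2, differed by -0.39 (limma adjusted p = 0.024), and its others by -0.06 to 0.03. Dpysl3, a cytoskeletal protein of neurons on chromosome 18, differed by -0.40 (limma adjusted p = 0.035), and both others by -0.16. None of these other probe sets was called. With these genes counted, chromosome 2 held both Dnmt3b and Mapre1, and chromosome 9 held both Tdgf1 and Taf1d. Dnmt3b (higher in M19) and Mapre1 (lower in M19) lie near each other, starting at bases 153649411 and 153741287 of chromosome 2.

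The number of genes called off chromosome 19 varied more with the arrays used. It was 0 when E15.5 or E17.5 was left out, and 10 without E13.5. Without single arrays it was 5, 6 and 5 (without replicate 1 of M19 at E13.5, of 129 at E13.5 and of 129 at E15.5), 12 without replicate 2 of 129 at E13.5, and 2 to 4 without any of the 8 other arrays. L1td1 and Serpina5 were called in all 12 of those fits, while Dnmt3b was lost in 10, Ccl17 in 7 and Tdgf1 in 6. A model with 6 group means does not count changes of the strain difference between stages as error. It called 46 genes off chromosome 19 and 38 on it, and 106 of the 111 probe sets were called in both models.

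Pluripotency genes leaned towards higher signal in M19, most at E15.5. Of 18 measured, 2 were called (L1td1 and Tdgf1, both higher), 8 had an unadjusted p under 0.05, 13 had a positive difference (7869 of 18032 over all genes), and the 7 with the same sign at all stages were all higher in M19. Over all genes 0.227% were called, 4.41% had an unadjusted p under 0.05 and 23.1% had the same sign at all stages. The median difference was 0.25, and by stage 0.07, 0.66 and 0.21, against -0.01 and -0.06, 0.01 and 0.01 over all genes. Nanog (0.84) and Sox2 (0.97), core pluripotency factors, did not pass (limma adjusted p = 0.14 and 0.18). Otx2 (1.24, adjusted p = 0.14) differed by -0.05, 1.89 and 1.89 at the 3 stages, and limma found that its strain difference varied with stage (adjusted p = 0.0049). Nanog, Sox2 and Otx2 were called in the model of 6 group means, without E13.5, and without replicate 2 of 129 at E13.5. In tissue RNA, more cells of a type and more RNA per cell cannot be told apart. Over all stages Ddx4 and Dazl, general germ cell genes, differed by -0.02 and 0.04. At E15.5 the germ cell list had a median difference of 0.10 (-0.17 at E13.5 and 0.00 at E17.5). Among its members above that median, Dazl differed by 0.51, Elavl2 by 0.61, Sycp3 by 0.73 and Ddx4 by 0.18. The 13 germ cell genes averaged 9.77 and 9.74 on M19 arrays at E15.5, against 9.45 and 9.61 on 129 arrays. At E13.5 they were lower in M19, at 9.15 and 9.15 against 9.28 and 9.30. The strains overlapped at E17.5, with 9.31 and 9.54 on M19 arrays and 9.54 and 9.38 on 129 arrays. At E15.5 the epidermis, skeletal muscle and cartilage or tendon lists had medians of -2.36, -0.94 and -1.02, being high on both 129 arrays. The part of the germ cell and other tissue levels in the pluripotency differences was not tested.

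The remaining lists gave few calls. Dnmt3b was the only one of 8 measured DNA methylation genes called, and Tdgf1 the only one of 14 Nodal pathway genes, where Nodal itself differed by 0.36 (limma adjusted p = 0.26). Of 17 piRNA genes 0 were called by limma (4 had an unadjusted p under 0.05), with a median of -0.14 that came from E13.5 (-0.43, 0.00 and 0.03 by stage). A negative difference was seen in 15 of the 17, against 10163 of all 18032 genes, and 2 had a called strain by stage interaction. The 129 group at E13.5 includes the array with the high 18S signal. Tdrd1, the piRNA gene that lies on chromosome 19, differed by -0.38 (limma adjusted p = 0.33). None of the 12 measured genes linked to testicular germ cell tumours was called by limma or had an unadjusted p under 0.05 (median 0.02). The 13 epidermis, 13 skeletal muscle and 8 cartilage or tendon genes gave 0 calls in limma (9, 6 and 6 had an unadjusted p under 0.05) and medians of -0.74, -0.29 and -0.39, which lay at E15.5. Lists of cholesterol synthesis, peritubular, interstitial, endothelial, red cell, macrophage, mesonephric, surface, adrenal, ovary, proliferation and sex-linked genes had 101 measured members. They gave 0 calls in limma and list medians between -0.15 and 0.09. An unadjusted p under 0.05 was reached by 17 of the 101, against 4.41% of all genes. Some of these lists were one-sided. All 13 cholesterol synthesis and all 4 sex-linked genes had a positive difference, and so did 6 of 7 adrenal genes. All 8 peritubular genes were negative, as were 8 of 10 interstitial and 8 of 10 macrophage genes. The other lists were more mixed in sign.

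A strain difference that varied with stage was called for 66 probe sets (0.147% of those tested). Only Mbl2 was among both these and the 111. The fit that gave the 111 counts such variation as error, so it disfavours probe sets that vary with stage. With 2 arrays a group, a missing interaction call does not show a constant difference. Removing the 92 probe sets whose 129 signal at E15.5 exceeded that of both other stages by 1 or more reduced the 66 to 12 and left the strain difference at 112 called probe sets. The 92 were picked from the same values that the interaction test uses, so part of this fall follows from the choice. Dropping 1 array changed the 66 to 35 or 37 (M19 at E13.5, replicates 1 and 2), 36 or 27 (M19 at E15.5, replicates 1 and 2), 38 (replicate 2 of 129, E15.5) and 39 (either replicate of 129, E17.5).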

How the data were processed

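The deposited table gives 1 log2-like value per probe set and array (12 arrays, 45101 probe sets). The summary method, background correction, normalization and log base that the authors used are not given in the sources used here; log2 was taken from the range of the deposited values, and precision is limited by having 12 arrays. Arrays were grouped by strain and stage from their titles. The 64 control probe sets were left out of the tests. Gene names came from the platform annotation, updated through gene IDs to RefSeq (GRCm38.p6): 34945 probe sets had 1 gene, 932 several and 9160 none, and 34741 matched a RefSeq gene.

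limma 3.58.1 (R 4.3.3) fitted stage plus strain (8 residual degrees of freedom), with Benjamini-Hochberg adjustment over 45037 probe sets and calls at adjusted p under 0.05. Stage contrasts and the interaction F test came from a model of 6 group means. The fit was tested on simulated data. A gene was represented by its brightest probe set. Named were up to 8 genes higher and 8 lower, on and off chromosome 19, with the largest difference among called representatives with the same sign at all 3 stages whose brighter strain exceeded the median probe set, genes called at each stage, the study's own genes and list members; others are said to be chosen after their values were seen. The comparison and the gene lists were chosen with earlier results of these data known. Alternatives covered scaling, filters on dim probe sets, variance models, array weights, the model, blocks, single arrays and stages. The titles do not say whether replicate numbers pair the arrays. Deviations of same-numbered arrays from their group means correlated at 0.249, -0.347 and -0.215 at the 3 stages. With signs that differ, these values cannot settle whether arrays shared a batch.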

Additional observations from a re-analysis of the deposited data

Results flagged for a closer look

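Of the 41 named probe sets that were followed through the alternative settings, 4 had a strain difference that varied between the stages. The test was limma's interaction test, and each value in brackets is an adjusted p. Counted over whole lists, 7 of 13 epidermis, 5 of 13 skeletal muscle and 3 of 8 cartilage or tendon genes had such a call. So did 2 of 18 pluripotency and 2 of 17 piRNA genes, against 37 of all 18032 genes. Krt1, an epidermal keratin, differed by -0.14, -3.65 and 0.04 at E13.5, E15.5 and E17.5 (1.9e-05), with a high signal on both 129 arrays at E15.5. Dppa5a, a pluripotency gene, differed by 0.14, 1.61 and 0.27 (0.0046). Otx2, a homeobox transcription factor of early embryonic cells, differed by -0.05, 1.89 and 1.89 (0.0049). Mbl2, on chromosome 19, differed by -0.29, -1.46 and -0.80 (0.038) and was lower in M19 at every stage. Each group has 2 arrays, so single arrays could not be set against their own group.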

How the results depend on the processing

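The 111 called probe sets, each with the same sign at all 3 stages, became 59 with the replicate block within stage, 56 with the 2 arrays of each group averaged (3 against 3), 62 without E13.5, 35 without E15.5 and 39 without E17.5, and 67 to 113 when 1 array was left out; in each of these fits all called probe sets again had the same sign at each stage used. The model of 6 group means called 189, of which 151 had the same sign at all 3 stages. The share of called genes on chromosome 19 (82.9%) was 45.2% in that model, 67.7% without E13.5, and 100% without E15.5 and without E17.5. The 66 probe sets with a called interaction were 23 among brighter probe sets (mean above the median), 118 with array weights, 34 with the replicate block, 12 without the probe sets high in 129 at E15.5, and 27 to 90 without 1 array. The 14 probe sets called at every stage, whose alternatives were chosen after seeing the data, were 22 with array weights and 7 to 15 without 1 array. The share of called chromosome 19 genes lower in M19 (67.6%) lay between 60.0% and 81.8% in every setting run. Its binomial interval, 49.5% to 82.6%, also takes genes as independent. Quantile normalization and median centring gave 119 and 107 called probe sets, with medians over all probe sets of 0.003 and 0.012 against -0.011. Of 41 named probe sets, 19 kept their direction and their side of the threshold in every setting run and 0 changed direction; 145 of 1135 values were no longer called and 11 became called. A random block for the group could not be fitted for the interaction, because block and group are then the same. With 2 arrays a group that may share a pool, and dim genes such as Tdgf1, Mbl2 and Slc18a2, the spread between litters is unknown.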
